A study of Mus musculus with 9 samples.

Results

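Interferon, antigen presentation, chemokine and immune surface genes were followed in mouse liver after short-term dietary restriction. The set holds every gene listed with an H2, CD, Ifi, Irf, Isg, Bst2, Oas, Gbp, chemokine, interleukin, Tlr, Fcgr or Ly6 symbol and a mean of at least 1 TPM, the transcript abundance unit that corrects for gene length and library total, over the 9 libraries. Of 79 listed genes with such a symbol, 54 passed this filter and 25 did not, out of 5608 genes listed and 4665 tested. The 54 members comprised 15 interferon genes (12 interferon-induced genes and 3 interferon regulatory factors), 4 immune cell markers and 35 other genes. The choice rested on symbols and on the mean level over all groups, and was made with earlier results of these data known. A gene high in 1 group could pass the filter through that group. The members nearest to the filter were Oasl2 at a mean of 1.10 TPM and H2-T-ps at 1.19 TPM, and just below it lay Ifit2 at 0.694 TPM and Ly6c1 at 0.656 TPM.

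The livers came from wild-type C57BL/6J mice, 3 per group. FED mice had the standard diet ad libitum. IF mice, which were intermittently fasted, went without food for 24 h on day 1 and again on day 4. FMD mice received a fasting-mimicking diet, low in calories and protein and rich in fat, from day 2 to day 4. All mice were sacrificed on day 5, and whole liver RNA was sequenced, so a gene's level mixes hepatocytes with every other liver cell. Fewer cells of a type and less RNA per cell cannot be told apart in such samples. Both diets were compared with the same FED libraries. The study describes each library as the liver of a separate mouse, so p-values measure the spread between mice.

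Interferons bind cell surface receptors and signal through JAK kinases to a complex that contains IRF9. This complex binds a DNA motif, the interferon-stimulated response element (ISRE), in front of many antiviral genes. Kupffer cells, the resident macrophages, carry CD68 and, with other antigen-presenting cells, the MHC class II chaperone CD74. Chemokines direct leukocytes through tissue, and interleukin receptors such as gp130 and the IL-1 receptor drive the hepatic acute phase response.

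Promoter sequences are shown for interferon genes whose levels are described next, to set those with an ISRE match beside one without. They are the 250 bases before the transcription start, 5′ to 3′, from RefSeq on GRCm38.p6, in which 42 of the 54 members were found by gene identifier. The submitters' processing notes name the build mm39 for the expression values, so these positions belong to the promoter table alone. All lie on the minus strand, at chr8:71537473-71537722 for Bst2, chr5:120907526-120907775 for Oas1a, chr7:140955962-140956211 for Ifitm2 and chr7:141010745-141010994 for Ifitm3. Capitals mark matches to the ISRE core, which is GAAA, any 2 bases and GAAA again, searched on both strands.
Bst2: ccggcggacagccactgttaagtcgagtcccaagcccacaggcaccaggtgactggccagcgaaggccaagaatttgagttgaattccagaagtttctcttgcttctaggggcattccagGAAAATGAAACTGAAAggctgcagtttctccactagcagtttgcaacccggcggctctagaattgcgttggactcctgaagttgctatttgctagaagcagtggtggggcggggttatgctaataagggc
Oas1a: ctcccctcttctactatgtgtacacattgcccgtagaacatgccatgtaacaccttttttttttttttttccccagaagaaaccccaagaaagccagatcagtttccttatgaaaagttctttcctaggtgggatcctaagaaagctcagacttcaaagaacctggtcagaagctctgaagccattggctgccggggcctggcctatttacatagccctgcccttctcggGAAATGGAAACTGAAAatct
Ifitm2: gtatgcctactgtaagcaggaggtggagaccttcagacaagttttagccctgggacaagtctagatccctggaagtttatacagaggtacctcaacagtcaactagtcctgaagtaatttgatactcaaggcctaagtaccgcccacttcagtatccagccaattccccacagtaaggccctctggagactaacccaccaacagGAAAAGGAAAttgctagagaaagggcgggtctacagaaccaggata
Ifitm3: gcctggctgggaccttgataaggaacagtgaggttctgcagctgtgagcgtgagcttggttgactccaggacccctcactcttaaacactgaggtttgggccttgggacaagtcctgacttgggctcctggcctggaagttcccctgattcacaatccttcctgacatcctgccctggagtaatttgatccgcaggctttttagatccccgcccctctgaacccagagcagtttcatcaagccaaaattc
In Bst2 the matches GAAAATGAAA and GAAACTGAAA began 130 and 124 bases before the start and overlapped each other. Oas1a held GAAATGGAAA and GAAACTGAAA at 20 and 14 bases, also overlapping, and Ifitm2 held GAAAAGGAAA at 46 bases. These letters were not found in the Ifitm3 window. Among all 32851 promoters of the table, 2.98% held the core, or 3.46% of 27025 genes. It was present in 6 of the 42 members (Cxcl10, H2-T22 and H2-T23 besides those printed) and in 3 of the 11 interferon genes with a promoter. A second motif, the gamma-activated site (TTC, any 3 bases, GAA), was found in 7.02% of all promoters, or 8.13% of 27025 genes. It was present in 4 of the 42 members (9.52%), close to that share of genes. Of these, Bst2, Oas1a and Isg20 are interferon genes. In Bst2 its match overlapped an ISRE match. A match is a string of letters and was not tested as a site.

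Genes tested had, at the median, higher TPM after either diet. The median over all genes tested was 0.24 on the log2 scale in IF and 0.48 in FMD against FED, and 0.24 in FMD against IF. Lying above without overlap was thus common. Of 4665 genes tested, 2510 did so in IF and 3174 in FMD against FED, and 1568 in FMD against IF. Listed TPM made up 26.3 to 29.3% of each FED library, 32.9 to 34.9% of each IF library and 34.9 to 43.0% of each FMD library. Scaled values, in which a library is divided by its median ratio to a geometric mean library, remove this shift and are given beside the deposited ones. They assume that the listed genes, a part of each library, do not change at the median. This was not tested. Under scaling a gene with steady TPM moves lower in both diets. Calls required limma's Benjamini-Hochberg adjusted p, taken over all genes tested, to be under 0.05 and the fold to exceed 1.5 in either direction. Fold changes are on the log2(TPM + 1) scale, which understates those of genes near 1 TPM. The 1 library that stood apart was FMD replicate 1, described last.

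In IF livers 11 of the 54 members were called, 9 lower and 2 higher, where 1.59% of all genes tested were called lower and 10.3% higher. In FMD livers 19 were called, 11 lower and 8 higher, against 1.59% and 35.5% of all genes. After scaling the members split into 14 lower and 0 higher in IF, against 3.45% and 3.69% of all genes, and into 19 lower and 1 higher in FMD, against 5.64% and 5.49%. At an unadjusted p under 0.05 by limma on the values as deposited, 5 members were higher in IF. The median log2 fold change over the members was -0.09 in IF and 0.03 in FMD. Gbp10 and Oasl2 passed the level filter through their FED values, and Il1rn, the 1 member higher after scaling, through its FMD values. Their calls are no support for these counts.

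**Figure D1:**
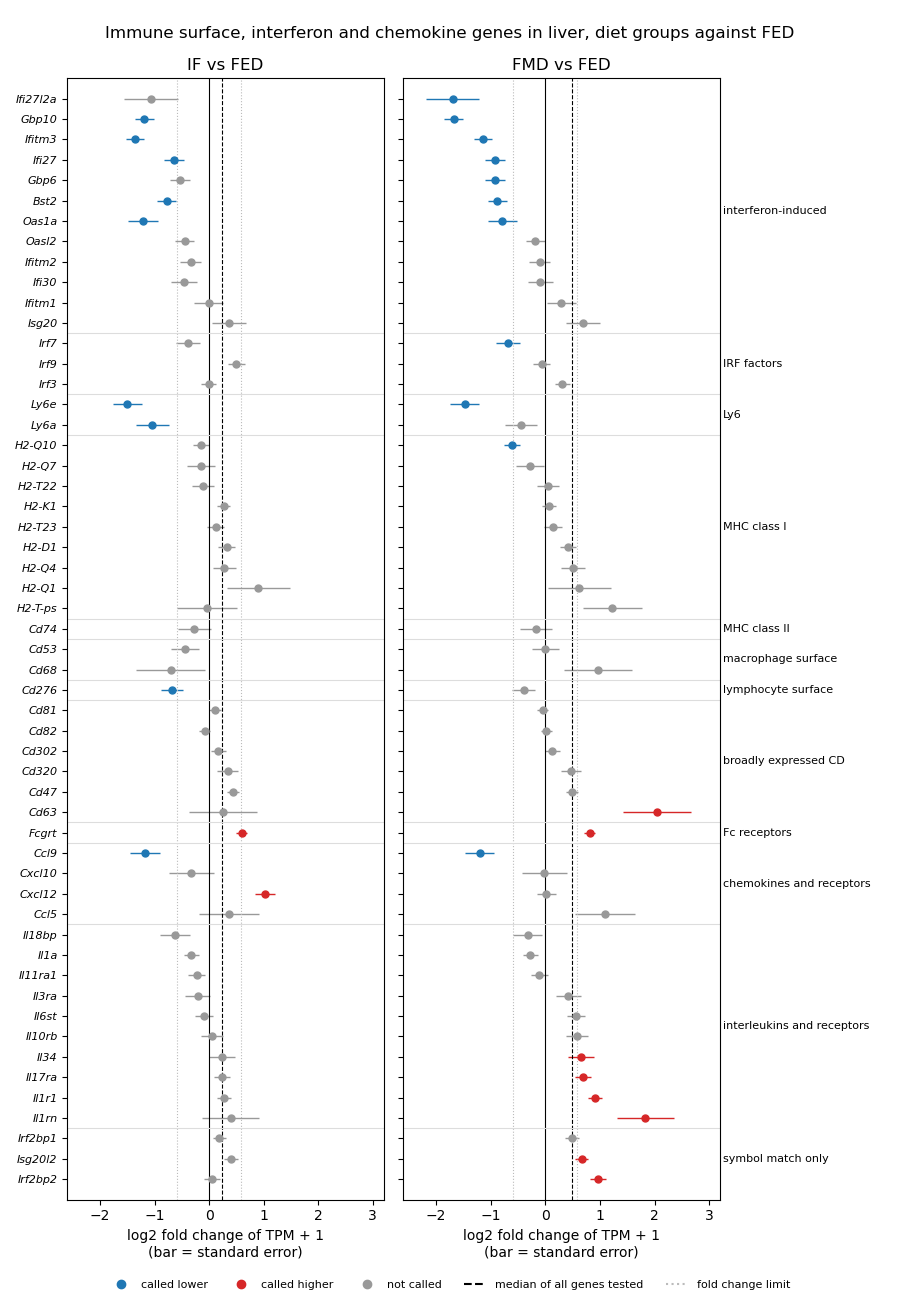
Log2 fold change of TPM + 1 (x axis, bar = standard error from limma) for each of the 54 members (y axis, grouped by role), IF vs FED on the left and FMD vs FED on the right. Blue points were called lower and red points higher, and the dashed line is the median of all genes tested at 0.24 and 0.48. The blue points gather among the interferon-induced and Ly6 genes, and 4 of the 8 red points of the FMD panel are interleukin genes.

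The interferon genes of the set were called in 1 direction, lower. In IF 5 of the 15 were called lower and 0 higher, in FMD 8 and 0, and after scaling 9 were lower in each diet. Gbp10 and Oasl2 passed the level filter through their FED values, so their lower calls are no support for these counts. Without both, 4 of 13 were lower in IF and 7 in FMD, and 7 and 8 after scaling. The counts and medians that follow include Gbp10 and Oasl2 again and carry the same limit. All 3 dieted mice lay below all 3 FED mice for 9 interferon genes in IF, against 6.77% of all genes, and for 7 in FMD, against 2.62%. In IF both of these genes were among the 9, and in FMD Gbp10 was among the 7. The median log2 fold change over the 15 genes was -0.47 in IF and -0.68 in FMD, and 13 and 14 of them lay below the median of all genes. At an unadjusted p under 0.05 by limma, 1 interferon gene was higher in each diet, Irf9 in IF and Irf3 in FMD. Without FMD replicate 1, the FMD count was again 8 lower and 0 higher, against 1.91% and 23.1% of all genes. Gbp10 was among these 8.

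Ifitm3 (NCBI gene 66141), which encodes a membrane protein that blocks virus entry, was the most abundant interferon gene. It was measured at 1168, 855 and 931 TPM in FED, at 329, 422 and 395 TPM in IF, and at 526, 446 and 369 TPM in FMD replicates 1, 2 and 4. Each dieted mouse lay below each FED mouse. Ifitm3 fell on the log2 scale by 1.36 for the IF mice (standard error 0.17, adjusted p = 5.6e-04), and for the FMD mice 1.14 (standard error 0.17, adjusted p = 5.75e-04), and by 1.64 and 1.69 after scaling.

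The other Ifitm members were not called on the deposited values. Ifitm2 stood at 414, 319 and 414 TPM in FED, 312, 321 and 268 TPM in IF and 485, 292 and 310 TPM in FMD, and the groups overlapped. The log2 fold change was -0.34 with IF (adjusted p = 0.211) and -0.10 with FMD (adjusted p = 0.635). After scaling it was called lower in both, at -0.62 (adjusted p = 0.017) and -0.66 (adjusted p = 0.0093). Ifitm1, between 11.4 and 13.5 TPM in FED and IF mice, reached 26.6 TPM in FMD replicate 1, with 10.95 TPM in replicate 2 and 11.7 TPM in replicate 4, and was not called. The Ifitm genes have similar sequences, and how reads shared between them were assigned is not given in the sources used here.

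Bst2 (NCBI gene 69550), or tetherin, holds budding viruses at the cell surface. It was measured at 236, 207 and 209 TPM in FED, 119, 128 and 131 TPM in IF and 142, 86.5 and 131 TPM in FMD mice. The FED values lay above all of the others, while IF and FMD overlapped. The change was -0.78 (standard error 0.17, adjusted p = 0.0098) after IF and -0.88 after FMD (standard error 0.17, adjusted p = 0.0020). Scaled values were -1.06 and -1.43.

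Ifi27 (NCBI gene 52668), which encodes a mitochondrial protein, stood at 179, 125 and 136 TPM in FED, 98.4, 91.3 and 89.0 TPM in IF and 100.1, 69.9 and 62.8 TPM in FMD mice. Neither diet group overlapped with FED. It changed by -0.64 for the IF mice (adjusted p = 0.0287), and for the FMD mice -0.92 (adjusted p = 0.00225). The IF call was lost without FED replicate 1 or 3 or any IF replicate, with an adjusted p of up to 0.121, and after scaling the fold change was -0.92 (adjusted p = 0.0030). Ifi27l2a, a member of the same family, was at 18.2, 20.4 and 14.5 TPM in FED, 13.9, 3.66 and 8.93 TPM in IF and 9.81, 5.62 and 1.6 TPM in FMD mice. Its values spread widely within both diet groups, yet did not overlap with FED. The change was called in FMD at -1.70 (standard error 0.49, adjusted p = 0.0124), reaching from -2.16 without FMD replicate 1 to -1.13 without FMD replicate 4, and not in IF at -1.07 (adjusted p = 0.132).

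The guanylate-binding proteins are large GTPases that act on intracellular microbes. Gbp10 (NCBI gene 626578) was at 3.01, 4.30 and 3.17 TPM in FED, 0.91, 0.58 and 1.5 TPM in IF and 0.27, 0.39 and 0.52 TPM in FMD mice, so that the 3 groups did not overlap. It changed by -1.18 with IF (standard error 0.18, adjusted p = 0.0017) and -1.68 with FMD (standard error 0.18, adjusted p = 1.1e-04). The difference between the diets was -0.50 (adjusted p = 0.0932). Gbp6 stood at 3.23, 4.04 and 2.65 TPM in FED, 1.43, 2.18 and 2.31 TPM in IF and 1.78, 1.26 and 0.82 TPM in FMD mice. Both diet groups lay below FED, and the change was called in FMD at -0.92 (adjusted p = 0.0028). In IF it was -0.54 (adjusted p = 0.0638), and it was called there after scaling at -0.75 (adjusted p = 0.0190). These genes are close copies of each other, which leaves their separate values uncertain.

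Oligoadenylate synthetases make the second messenger that activates RNase L. Oas1a (NCBI gene 246730) was at 4.22, 2.28 and 2.62 TPM in FED and at 0.52, 0.64 and 1.01 TPM in IF mice, with no overlap. In FMD it was at 2.45, 1.29 and 0.53 TPM, with replicate 1 inside the FED range. The log2 fold change was -1.21 (adjusted p = 0.0113) after IF and -0.79 after FMD (adjusted p = 0.0269). With FED replicate 1 or IF replicate 1 left out, the adjusted p in IF reached 0.0529 at most. The FMD call was lost without FED replicate 1, FMD replicate 2 or FMD replicate 4 (adjusted p up to 0.108), and over all libraries left out the value ran from -1.08 without FMD replicate 1 to -0.49 without FMD replicate 4. Oasl2, near the detection filter at 1.28, 1.61 and 1.29 TPM in FED and 0.47, 0.78 and 1.04 TPM in IF mice, was called in IF after scaling (-0.62, adjusted p = 0.0241) and not before (-0.45, adjusted p = 0.0817).

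Ifi30 encodes a lysosomal thiol reductase used in antigen processing. It stood at 13.5, 15.1 and 16.1 TPM in FED, 10.1, 9.16 and 12.4 TPM in IF and 18.9, 16.4 and 8.59 TPM in FMD mice. IF mice lay below FED mice, and the change was called after scaling at -0.73 (adjusted p = 0.0377), with -0.47 (adjusted p = 0.166) before. Isg20, an RNA exonuclease, ranged from 0.79 to 2.54 TPM in FED livers, 1.80 to 2.57 TPM in those of IF mice and 1.49 to 4.94 TPM in those of FMD mice and was not called.

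Of the 3 regulatory factors, Irf7 was called lower in FMD. Irf3, which transmits signals from nucleic acid sensors, was at 35.5, 31.4 and 34.1 TPM in FED, 35.6, 31.3 and 33.6 TPM in IF and 48.5, 43.4 and 35.4 TPM in FMD mice and was not called. Irf7, the main amplifier of type I interferon production, was at 32.3, 19.9 and 24.2 TPM in FED and at 18.4, 11.3 and 16.8 TPM in FMD mice, with no overlap. It changed by -0.68 in FMD (standard error 0.22, adjusted p = 0.0183), a call that was lost without FED replicate 1 or FMD replicate 2, with an adjusted p of up to 0.0783. In IF mice Irf7 was at 15.3, 19.9 and 22.2 TPM, a change of -0.39 (adjusted p = 0.208). Irf9, which gives the ISRE-binding complex its DNA contact, stood at 15.7, 12.9 and 16.9 TPM in FED, 18.9, 24.4 and 22.1 TPM in IF and 16.9, 14.8 and 11.9 TPM in FMD mice. Its IF values lay above both other groups. The IF difference of 0.50 (adjusted p = 0.0428) was under the fold limit, and FMD compared to IF gave -0.56 (adjusted p = 0.0531), or -0.81 after scaling (adjusted p = 0.0169).

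**Figure D2:**
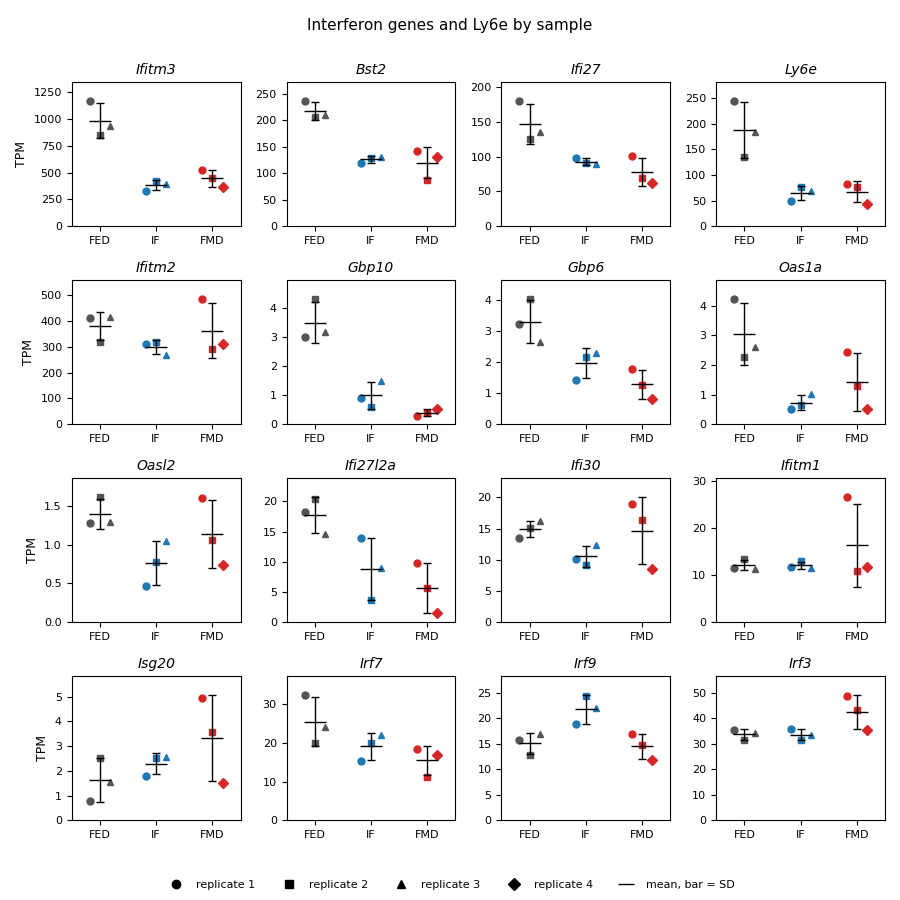
TPM (y axis, from 0) in each mouse for the 15 interferon genes and Ly6e, with FED, IF and FMD on the x axis, symbols for the replicate number and bars for mean and SD of 3 mice. Ifitm3, Bst2, Ifi27, Ly6e, Gbp10 and Gbp6 lie lower in each dieted mouse than in each FED mouse, while Ifitm1, Isg20 and Irf3 overlap between FED and the diets.

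The 2 Ly6 members encode small proteins anchored in the plasma membrane. Ly6e (NCBI gene 17069), an interferon-responsive restriction factor for several viruses, was at 244, 136 and 183 TPM in FED, 50.2, 75.6 and 68.7 TPM in IF and 81.6, 76.7 and 43.6 TPM in FMD mice. The dieted mice lay below the FED mice without overlap. The log2 fold change was -1.50 for the IF mice (standard error 0.27, adjusted p = 0.0039), and for the FMD mice -1.48 (standard error 0.27, adjusted p = 0.0015), and it was called with each library left out. Ly6a, or Sca-1, a marker of stem cells and activated lymphocytes, stood at 10.6, 16.5 and 18.7 TPM in FED, 11.5, 4.61 and 5.55 TPM in IF and 13.9, 10.03 and 8.64 TPM in FMD mice, and the groups overlapped. It changed by -1.04 in IF (adjusted p = 0.0285), which was lost without FED replicate 2 or 3 or IF replicate 2 or 3 (adjusted p up to 0.122). In FMD the change was -0.44 (adjusted p = 0.200), and after scaling -0.96 (adjusted p = 0.0337).

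MHC class I presents peptides to T cells. Of its 9 members, 0 were called in IF by limma (0 at an unadjusted p under 0.05 in either direction), and 1 was called lower in FMD, with medians of 0.12 and 0.14 on the log2 scale. H2-Q10 (NCBI gene 15007), a secreted class I protein made in liver, had the highest level of the set. It was at 2332, 1897 and 2018 TPM in FED, 1948, 1917 and 1732 TPM in IF and 1303, 1188 and 1627 TPM in FMD mice, and FMD lay below both other groups. The FMD change was -0.61 (standard error 0.14, adjusted p = 0.0049). It stayed under an adjusted p of 0.0237 with each library left out, but passed below the fold limit without FED replicate 1, FMD replicate 1 or FMD replicate 2, down to -0.51. After scaling it was -1.16 (adjusted p = 0.0017), and IF compared to FED was -0.15 (adjusted p = 0.439).

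The classical molecules H2-K1, at 1010 to 1241 TPM in FED livers, 1197 to 1400 TPM in those of IF mice and 1088 to 1213 TPM in those of FMD mice, and H2-D1, at 390 to 464 TPM in FED livers, 488 to 584 TPM in those of IF mice and 469 to 665 TPM in those of FMD mice, were not called. H2-D1 lay above FED in each dieted mouse, by 0.32 on the log2 scale for IF and 0.42 for FMD, which is below the fold limit. So did 2510 of 4665 genes tested in IF and 3174 in FMD. After scaling H2-D1 was at 0.04 and -0.14, and the diets overlapped with FED. H2-Q7 stood at 40.2, 26.7 and 34.4 TPM in FED and 30.0, 38.8 and 17.5 TPM in FMD mice, and was called lower in FMD after scaling (-0.81, adjusted p = 0.0383) but not before (-0.28, adjusted p = 0.338). H2-T22, H2-T23, H2-Q4, H2-Q1 and H2-T-ps were not called in either diet. The class I genes share long stretches of sequence, and reads may be divided among them.

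Of the immune cell markers, Cd74, Cd68 and Cd53 were not called in either diet and Cd276 was called lower in IF. Cd74 (NCBI gene 16149) was at 34.7, 63.0 and 65.9 TPM in FED, 46.9, 37.3 and 46.4 TPM in IF and 58.3, 60.0 and 28.4 TPM in FMD mice. The groups overlapped, with log2 fold changes of -0.27 (standard error 0.30, adjusted p = 0.515) and -0.17 (standard error 0.30, adjusted p = 0.609). Cd68 (NCBI gene 12514), a lysosomal protein of macrophages, was at 6.35, 10.4 and 8.31 TPM in FED and 5.21, 3.14 and 5.99 TPM in IF mice. The IF values lay below the FED values without overlap. In FMD it was at 64.0, 12.2 and 5.75 TPM, so the group mean of 27.3 ± 32.0 TPM (SD, n = 3) rests on replicate 1. The log2 fold change was -0.70 with IF (adjusted p = 0.420) and 0.96 with FMD (adjusted p = 0.187), and 0.04 in FMD without replicate 1 (adjusted p = 0.921). Both comparisons shared a standard error of 0.63 from 1 fit, so the spread in FMD also widened the IF test. Without FMD replicate 1, 1 of the 4 markers was called lower in IF, and 2 after scaling, against 1.99% and 4.27% of all genes.

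Cd53, a leukocyte tetraspanin, lay between 0.60 and 3.03 TPM in all mice. Cd276, or B7-H3, a costimulatory family member that non-immune cells also make, was at 2.76, 2.08 and 2.87 TPM in FED, 1.41, 0.85 and 1.46 TPM in IF and 2.66, 1.06 and 1.60 TPM in FMD mice. IF lay below FED without overlap and the change was -0.68 (adjusted p = 0.0379), but the call was lost when any FED or IF library was left out (adjusted p up to 0.151). In FMD it was -0.40 (adjusted p = 0.108), and after scaling Cd276 was called in both diets. At an unadjusted p under 0.05, 0 of the 4 markers differed in FMD compared to FED by limma.

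Markers of other liver cells are thinly covered in the table used here. Of 17 macrophage and Kupffer cell markers 2 were tested, Cd68 and Mpeg1, a pore-forming protein of macrophages. Mpeg1 was at 26.2, 15.95 and 26.6 TPM in FED, 9.34, 10.22 and 10.01 TPM in IF and 18.1, 12.1 and 5.08 TPM in FMD mice, and was called lower in both diets, at -1.11 (adjusted p = 0.0407) and -1.02 (adjusted p = 0.0236). The FMD values of Mpeg1 overlapped with FED, while its IF values did not. Cd68, the other marker, was called in neither diet, at -0.70 in IF and 0.96 in FMD, or 0.04 without FMD replicate 1. A part of either marker's cells in the change of the interferon genes was not tested. Of 7 stellate cell markers 3 were tested, and Dcn, a matrix proteoglycan, was called higher in both diets, at 0.86 (adjusted p = 0.0229) and 0.90 (adjusted p = 0.0074), but not after scaling. The other 2, Col1a1 and Pdgfrb, were not called, at -0.13 and 0.15 in IF and at -0.22 and -0.05 in FMD. Genes of the T and NK cell, B cell, neutrophil and endothelial marker lists were not analysed here. Ass1, a urea cycle enzyme of hepatocytes, ranged from 2335 to 5153 TPM over the 9 mice, and was not called.

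**Figure D3:**
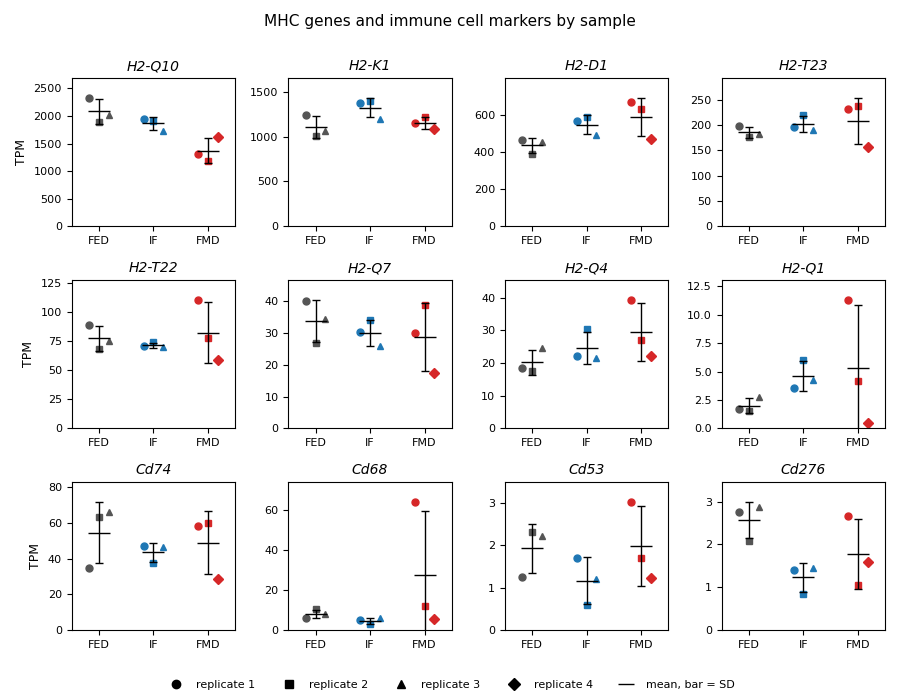
TPM (y axis, from 0) in each mouse for 8 MHC class I genes and the 4 immune cell markers, by diet, with symbols for the replicate number and bars for mean and SD of 3 mice. H2-Q10 is lower in the FMD mice, H2-D1 lies above the FED range in each dieted mouse (488 TPM or higher in IF), and the Cd68 value of FMD replicate 1 at 64.0 TPM lies above the other 8 mice.

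Other CD members are found on most cell types. Cd47, Cd81, Cd82, Cd302 and Cd320 were not called in either diet on the values as deposited. Cd302, a lectin receptor and the most abundant of them, was at 203 to 254 TPM in FED livers, 242 to 282 TPM in those of IF mice and 231 to 296 TPM in those of FMD mice. Cd81, a tetraspanin, ranged from 183 to 225 TPM over all mice, with a log2 fold change of -0.05 in FMD (adjusted p = 0.674) that became -0.60 after scaling (adjusted p = 0.0068). Cd63, a tetraspanin of late endosomes, was at 7.28, 7.81 and 6.85 TPM in FED, 12.4, 7.51 and 7.61 TPM in IF and 114, 30.8 and 10 TPM in FMD mice. FMD lay above FED, and ranged widely within the group. The change was 2.05 (standard error 0.62, adjusted p = 0.0153), 1.17 without FMD replicate 1 (adjusted p = 0.0188) and 2.87 without FMD replicate 4. After scaling Cd63 was not called (1.53, adjusted p = 0.0841).

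Fcgrt (NCBI gene 14132) encodes the heavy chain of the neonatal Fc receptor, which recycles IgG and albumin. It was at 119, 123 and 117 TPM in FED, 189, 173 and 183 TPM in IF and 203, 213 and 218 TPM in FMD mice, and the 3 groups did not overlap. The rise was 0.60 (standard error 0.10, adjusted p = 0.0026) after IF and 0.81 after FMD (standard error 0.10, adjusted p = 2.2e-04). In IF it fell below the fold limit without FED replicate 3 or IF replicate 1, at 0.57 to 0.63 over the libraries left out. After scaling it was called in neither, at 0.32 (adjusted p = 0.129) and 0.26 (adjusted p = 0.167).

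Of the 4 chemokines, Ccl9 was lower in both diets and Cxcl12 higher in IF. Ccl9 (NCBI gene 20308), a ligand of CCR1, was at 31.9, 26.0 and 28.9 TPM in FED, 11.3, 17.0 and 9.42 TPM in IF and 15.6, 14.7 and 7.29 TPM in FMD mice. Both diet groups lay below FED. The log2 fold change was -1.17 for the IF mice (standard error 0.27, adjusted p = 0.0115), and for the FMD mice -1.20 (standard error 0.27, adjusted p = 0.0038), with an adjusted p in IF of up to 0.0503 without FED replicate 1 or IF replicate 1.

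Cxcl12 (NCBI gene 20315), the ligand of CXCR4 that retains leukocytes in tissue, was at 144, 140 and 152 TPM in FED, 285, 283 and 318 TPM in IF and 113, 140 and 201 TPM in FMD mice. The IF mice stood above all others, and FMD overlapped with FED. It rose by 1.02 in IF (standard error 0.18, adjusted p = 0.0035), which was not called after scaling (0.74, adjusted p = 0.0719), and differed by 0.02 in FMD (adjusted p = 0.928). Cxcl10, the interferon-inducible ligand of CXCR3, was at 2.66 to 5.34 TPM in FED livers, 2.06 to 3.43 TPM in those of IF mice and 1.22 to 8.23 TPM in those of FMD mice and was not called. Ccl5, a T cell and macrophage chemokine, was at 0.64, 1.95 and 2.62 TPM in FED and at 15.1, 2.83 and 1.71 TPM in FMD mice. Its change of 1.08 in FMD (adjusted p = 0.0994) became 0.31 without FMD replicate 1 (adjusted p = 0.403).

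Of the 10 interleukins and receptors, 4 were called in FMD. These 4 were higher and 0 lower, with a median log2 fold change of 0.57, near the 0.48 of all genes, and after scaling 1 was higher and 3 lower. Il1rn, 1 of these 4 and the 1 higher after scaling, passed the level filter through its FMD values. Its call is no support for these counts. In IF, 0 of 10 were called by limma, with 2 lower and 0 higher at an unadjusted p under 0.05, and after scaling Il18bp was called lower. The difference between the diets in these counts was not tested. A share of 4 in 10 is close to the 35.5% of all genes called higher in FMD.

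Il1r1 (NCBI gene 16177), the signalling receptor for IL-1, was at 7.91, 6.88 and 6.60 TPM in FED, 9.03, 8.70 and 8.77 TPM in IF and 12.9, 13.1 and 17.2 TPM in FMD mice. The 3 groups did not overlap. Its rise in FMD was 0.92 (standard error 0.13, adjusted p = 4.6e-04), and 0.42 after scaling (adjusted p = 0.0984). Il1rn, the natural antagonist of that receptor, was at 0.51, 0.38 and 0.44 TPM in FED, 1.21, 0.91 and 0.63 TPM in IF and 8.70, 7.43 and 0.64 TPM in FMD mice. Replicate 4 stayed near the IF level while the other FMD mice did not. The change was 1.83 in FMD (standard error 0.52, adjusted p = 0.0116), from 1.37 without FMD replicate 1 to 2.65 without FMD replicate 4, and it was the 1 member called higher after scaling (1.51, adjusted p = 0.0499). As its mean in FED and IF was under 1 TPM, Il1rn passed the filter through the FMD group. Il1a, an IL-1 ligand, was at 2.21, 1.63 and 1.79 TPM in FED and 1.04, 1.41 and 1.72 TPM in FMD mice, and was called lower in FMD after scaling (-0.60, adjusted p = 0.0202) but not before (-0.27, adjusted p = 0.104).

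Il6st, which encodes gp130, the shared receptor chain of the IL-6 family, had the second highest level of these genes after Il11ra1. It was at 13.1, 18.9 and 18.7 TPM in FED, 16.9, 14.8 and 14.8 TPM in IF and 28.2, 26.3 and 21.2 TPM in FMD mice, with FMD above both other groups. Compared to FED it differed by 0.56 (adjusted p = 0.0116), under the fold limit. Il11ra1, the IL-11 receptor, was at 35.2, 26.2 and 29.1 TPM in FED and 33.8, 27.8 and 22.5 TPM in FMD mice and was called lower in FMD after scaling (-0.65, adjusted p = 0.0045) but not before (-0.11, adjusted p = 0.535).

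Il17ra, the receptor chain for IL-17, was at 3.75, 3.68 and 4.06 TPM in FED, 5.01, 4.74 and 4.38 TPM in IF and 8.77, 5.47 and 6.42 TPM in FMD mice. The groups did not overlap, and the rise in FMD was 0.69 (adjusted p = 0.00345), which passed below the fold limit at 0.52 without FMD replicate 1 and was 0.22 after scaling, where it was not called. Il34, a ligand of the macrophage receptor CSF1R, was at 1.12, 1.19 and 0.83 TPM in FED and 3.73, 2.1 and 1.25 TPM in FMD mice. Its change of 0.65 (adjusted p = 0.0290) was lost without any FED replicate or without FMD replicate 1 or 2, with an adjusted p of up to 0.0888, and after scaling it was 0.31 (adjusted p = 0.268). Il18bp, which neutralises IL-18, was at 8.01, 9.31 and 9.20 TPM in FED, 5.92, 4.44 and 5.79 TPM in IF and 10.7, 7.87 and 3.64 TPM in FMD mice. It was called lower in both diets after scaling (-0.88, adjusted p = 0.0292, and -0.82, adjusted p = 0.0293) but not before. Il3ra and Il10rb were not called in either diet.

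**Figure D4:**
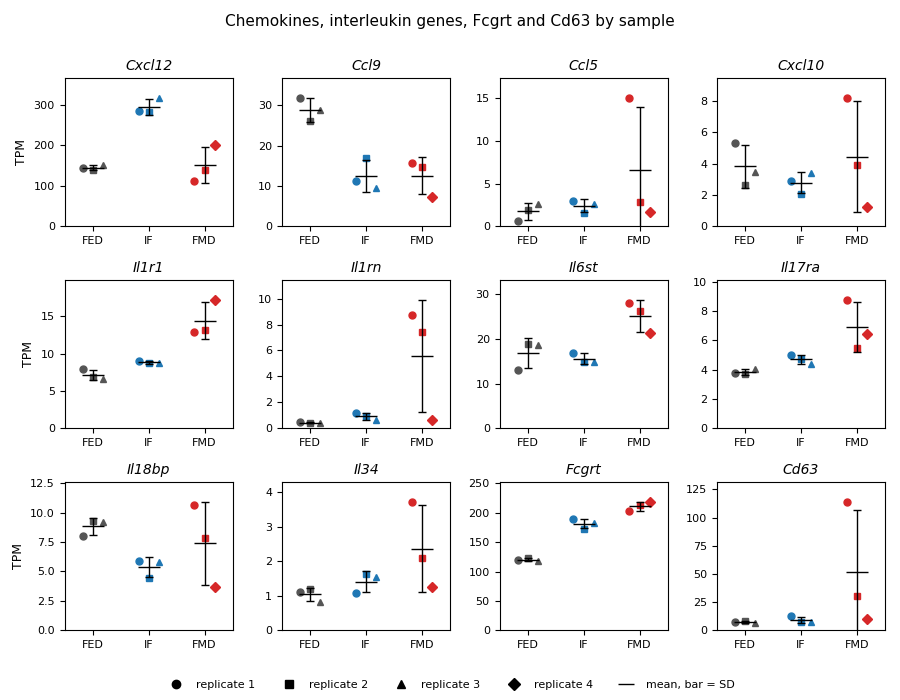
TPM (y axis, from 0) in each mouse for the 4 chemokines, 6 interleukin or interleukin receptor genes, Fcgrt and Cd63, by diet, with symbols for the replicate number and bars for mean and SD of 3 mice. Cxcl12 is highest in the 3 IF mice, Ccl9 is lower in both diets, and Fcgrt and Il1r1 step up from FED to IF to FMD. FMD replicate 1 is highest for Ccl5, Cxcl10, Il1rn, Il6st, Il17ra, Il18bp, Il34 and Cd63.

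The symbol rule also took in 3 genes that are not interferon genes. Irf2bp2, a corepressor that binds IRF2, was at 11.41, 12.46 and 13.75 TPM in FED, 14.1, 11.7 and 13.4 TPM in IF and 30.9, 22.97 and 23.01 TPM in FMD mice, and FMD lay above both other groups. It rose by 0.97 in FMD (standard error 0.14, adjusted p = 5.3e-04), against 0.44 after scaling, below the fold limit. Isg20l2, a ribosome biogenesis nuclease, rose by 0.66 in FMD (adjusted p = 0.0016) and was not called after scaling (0.16, adjusted p = 0.255). Irf2bp1 was not called.

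Further genes of these pathways, outside the symbol rule, were taken from lists. Of 18 tested genes of the interferon pathway, 1 was lower and 2 were higher in IF, and 1 lower and 3 higher in FMD, where 1.59% of all genes were lower in each diet and 10.3% and 35.5% higher. After scaling the counts turned to 2 lower and 1 higher in IF and 4 lower and 1 higher in FMD. The shares of all genes were then 3.45% lower and 3.69% higher in IF, and 5.64% and 5.49% in FMD. Zbp1, a sensor of Z-form nucleic acids, was lower in both, at -0.86 (adjusted p = 0.0284) and -1.11 (adjusted p = 0.0038). Socs3, a feedback inhibitor of JAK signalling, was higher in both, at 1.06 (adjusted p = 0.0060) and 1.31 (adjusted p = 8.0e-04). Mavs, the adaptor of cytosolic RNA sensors, was higher in FMD at 0.64 (adjusted p = 0.0019), but not after scaling. Irgm2 was higher in IF at 0.60 (adjusted p = 0.0221), but not after scaling. In FMD it was not called at -0.43 (adjusted p = 0.0358), and was lower after scaling at -0.94 (adjusted p = 0.0041). In FMD compared to IF, 1 of the 18 was called higher, Mavs, and 1 lower, Irgm2, against 4.67% and 0.472% of all genes. For Irgm2 this was -1.03 (adjusted p = 0.0118), and -1.27 after scaling (adjusted p = 0.0072).

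Of 10 antigen presentation genes, 3 were lower and 0 higher in IF, against 1.59% and 10.3% of all genes. The counts were the same after scaling, against 3.45% and 3.69%. In FMD 1 was lower and 1 higher, against 1.59% and 35.5% of all genes. After scaling 5 were lower in FMD (B2m, Calr, Psmb8, Psmb9 and Psme2) and 0 higher, against 5.64% and 5.49% of all genes. Calr, a chaperone of class I assembly, was lower in IF at -0.80 (adjusted p = 0.0058), and so was the immunoproteasome subunit Psmb8 at -0.68 (adjusted p = 0.0110). Ctsl, a lysosomal protease, was higher in FMD at 1.32 (adjusted p = 0.0075), but not after scaling.

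Of 13 innate signalling genes, 1 was higher in IF and 5 in FMD, beside 10.3% and 35.5% of all genes. After scaling 0 were called in FMD, against 11.1% of all genes, and 2 were lower in IF, against 3.45%. Ikbkg, the regulatory subunit of the IKK complex, was higher in FMD at 0.79 (adjusted p = 4.8e-04), as was the kinase Irak1 at 0.74 (adjusted p = 6.9e-04). Lbp, the lipopolysaccharide-binding protein, was higher in both diets, at 0.80 (adjusted p = 0.0074) and 0.98 (adjusted p = 9.8e-04). Of 8 interleukin signalling genes 1 was lower in IF, against 1.59% of all genes. In FMD 1 was lower and 1 higher, against 1.59% and 35.5%, or 2 lower and 0 higher after scaling, against 5.64% and 5.49%. Lifr, the receptor for leukaemia inhibitory factor, was lower in both, at -2.22 (adjusted p = 1.2e-04) and -2.61 (adjusted p = 1.2e-05), and the phosphatase Ptpn11 was higher in FMD at 0.76 (adjusted p = 0.0017).

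In the direct comparison of FMD with IF, 4 of the 54 members were called, 3 higher and 1 lower, against 4.67% and 0.472% of all genes. After scaling 1 was called higher and 2 lower, against 1.11% in each direction. Cxcl12 was lower in FMD, with a log2 fold change of -0.999 (standard error 0.18, adjusted p = 0.0193), and -1.27 after scaling (adjusted p = 0.0256). Irf2bp2 was higher by 0.91 (adjusted p = 0.0118) and by 0.65 after scaling (adjusted p = 0.0143). Il1r1 at 0.64 (adjusted p = 0.0266) and Il6st at 0.66 (adjusted p = 0.0380) were not called after scaling (adjusted p = 0.189 and 0.118). Each of the 4 calls was lost without IF replicate 2 and without IF replicate 3. Of the 15 interferon genes 0 were called by limma, with 1 higher and 2 lower at an unadjusted p under 0.05. After scaling 1 was called lower in FMD, Irf9, at the values given above, and without FMD replicate 1 Irf9 was also called before scaling (-0.67, adjusted p = 0.0330). For Bst2 the difference was -0.10 (standard error 0.17), for Ifitm3 0.22 (standard error 0.17) and for Ly6e 0.02 (standard error 0.27).

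FMD replicate 1 stood apart in part of the set. The TPM there was over 2 times the mean of FMD replicates 2 and 4 in 13 of the 54 members (24.1%), against 291 of 4665 genes tested (6.24%), with a median ratio of 1.42 over the members and 1.26 over all genes. The limit of 2 was chosen after the values were seen. Among genes with a mean of at least 1 TPM over the other 8 libraries, it was 12 of 53 members (22.6%) against 272 of 4625 genes (5.88%). The ratio was 7.15 for Cd68 and 6.64 for Ccl5. It was 13.7 for H2-T-ps, a class I pseudogene at 8.26 TPM in that mouse and 0.07 to 0.88 TPM in the other 8, which passed the level filter through this library alone, so that its ratio had to be high. Of the interferon genes, 3 were among the 13 (Ifi27l2a, Oas1a and Ifitm1), and Gbp10 had the lowest ratio, 0.59. The source of these values was not tested. Without this library the members called in FMD compared to FED were 12 lower and 6 higher, against 11 and 8 with it.

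**Figure D5:**
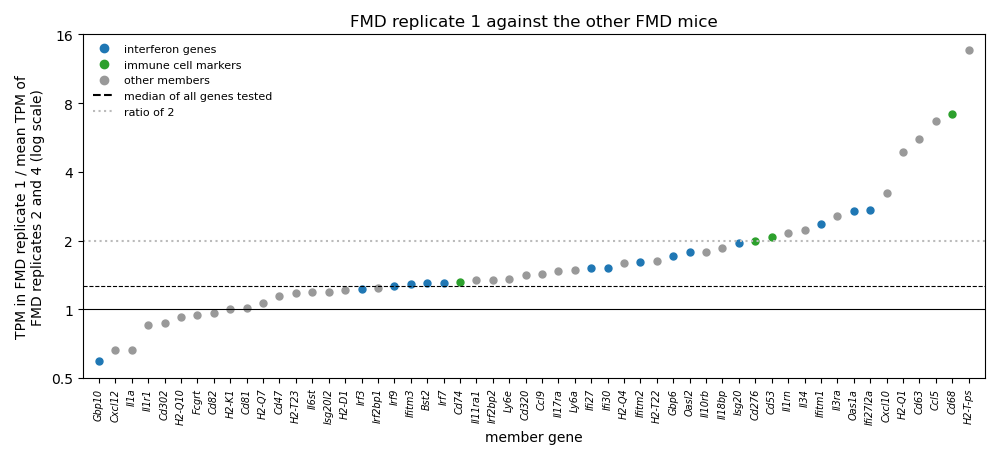
Ratio of the TPM in FMD replicate 1 to the mean TPM of FMD replicates 2 and 4 (y axis, log scale) for the 54 members in rising order (x axis), coloured by kind. The dashed line is the median of all genes tested, 1.26, and the dotted line is a ratio of 2, which 13 members exceed, up to 13.7 for H2-T-ps.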

How the data were processed

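Liver RNA of 9 mice was analysed, 3 per group, grouped by the labels. Strand-specific oligo-dT libraries were sequenced on DNBSEQ. Values are TPM as deposited by the authors, normalized for transcript length and library total and given to 2 decimals. The submitters' notes name DESeq2 and mm39, and the aligner and annotation are not given in the sources used here. The table lists part of each library, so depth is unknown and no counting interval is given. Of 5608 genes listed, 48 were 0 in all libraries.

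The 4665 genes with a mean of at least 1 TPM were fitted as log2(TPM + 1) in limma 3.58.1 (R 4.3.3; lmFit, eBayes with a trend, 1 fit of all libraries), with Benjamini-Hochberg adjustment over all of them. Calls needed adjusted p below 0.05 with a fold of over 1.5 either way, after the study's methods. The fit was tested on simulated data with large changes in IF alone, in genes well above the level filter. Changes near the fold limit, changes in genes near the filter and a shift over all genes were not simulated. Figures were made with python 3.11.15, pandas 2.3.3, numpy 2.4.6 and matplotlib 3.10.9.

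The members, gene lists and tests were chosen with earlier results of these data known. Named members are Cd74, Cd68, Bst2, the 32 called in at least 1 comparison before or after scaling, and the most abundant of each role, and for the pathway and marker lists up to 3 called genes with the smallest adjusted p in either comparison with FED. Ass1, Col1a1 and Pdgfrb are markers given although not called. Members outside this rule that are named with values (Ifitm1, Isg20, H2-K1, H2-D1, H2-T-ps, Cd53, Cxcl10, Ccl5) were added after their values were seen. So was Irgm2, from the interferon pathway list. Alternatives left out each library in turn or changed the pseudocount, the filter, the normalization (median ratio or quantile), the thresholds, the variance trend, the groups fitted together, and a block by replicate number.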

Additional observations from a re-analysis of the deposited data

Results flagged for a closer look

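The 4 members below differed between the diets in the direct test of FMD against IF. For Cxcl12 the log2 fold change was -0.999 (adjusted p = 0.0193), for Irf2bp2 0.91 (adjusted p = 0.0118), for Il1r1 0.64 (adjusted p = 0.0266) and for Il6st 0.66 (adjusted p = 0.0380), each from limma over 4665 genes with n = 3 mice per diet. Every FMD mouse lay below every IF mouse for Cxcl12 and above every IF mouse for the other 3 genes. Of all 4665 genes tested, 142 lay below and 1568 above in this way. Cxcl12 and Irf2bp2 were also called after scaling, while Il1r1 and Il6st were not. All 4 calls were lost without IF replicate 2 and without IF replicate 3.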

How the results depend on the processing

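The members called in IF compared to FED went from 11 to 7 with a pseudocount of 5 and to 6 at an adjusted p under 0.01. With 1 library left out they numbered 6 to 14, and 8 to 17 after scaling. In FMD compared to FED no alternative moved the number of members called, 19, by over 1.5 times. Their directions did move, from 11 lower and 8 higher to 19 lower and 1 higher after scaling. In FMD compared to IF the 4 members called became 2 with a pseudocount of 5, 14 with a replicate block, 7 after scaling with the block, and 0 in 1 fit of the 2 groups or at an adjusted p under 0.01, where 13 and 16 members had an unadjusted p under 0.05 by limma. With 1 library left out this count ran from 0 to 13, and from 0 to 8 after scaling, with 13 without FMD replicate 4 and 0 without IF replicate 2 or 3, where 11 members each had an unadjusted p under 0.05. The cause was not tested. Values near 0 that were not called changed sign in FMD compared to FED. With 1 library left out, Ifitm2 ran from -0.33 to 0.032, H2-Q7 from -0.52 to 0.032, Il11ra1 from -0.25 to 0.032 and Il18bp from -0.61 (called, without FMD replicate 1) to 0.051. With the block Il11ra1 was 0.0053 and Il18bp 0.0888. In every alternative tried, 3 of the 11 calls in IF, 7 of 19 in FMD and 0 of 4 in FMD compared to IF were the same. With each library left out, 5, 14 and 0 were. Gbp10 was among the 7, the 5 and the 14, and Il1rn was among the 14. As they passed the level filter through FED and FMD respectively, their calls are no support for these counts. The correlations of same-numbered mice were all positive but small, at 0.177, 0.04 and 0.00348 between FED and IF, 0.109 and 0.00551 between FED and FMD, and 0.11 and 0.159 between IF and FMD, the comparison that the block moved from 4 to 14 calls. As several were under 0.1, and not every mouse correlated best with its own number, the numbers were not taken as pairs. Depth is unknown, and genes near 1 TPM, such as Oasl2 and Gbp10, are the least precise.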
